A study of Mus musculus with 6 samples.

Results

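The 10 genes described here are used to recognise dendritic cells and Langerhans cells in mouse skin: Cd207, Epcam, Clec10a, Cd209a, Xcr1, Batf3, Itgax, Flt3, Zbtb46 and Ccr7. They were taken by symbol from an array annotation that named 19938 genes, and each of the 10 had 1 probe set with a single symbol. The tissue was the whole thickness of back skin from BALB/c males (an albino inbred strain) of 5 to 6 weeks, for which the labels give no other genetic change and no drug, and transcripts were read on Affymetrix mouse gene arrays. The 3 groups were intact skin, wounds 1 day after injury and wounds 4 days after injury, with 2 arrays each. Wounded mice had 2 punch wounds of 4 mm, made down to the fascia, and biopsies of 8 mm took in the skin around the wound, so much of a wound biopsy was skin beside the wound. The labels call the replicates biological but leave unsaid if each stands for 1 animal or a pool, so p-values measure the spread between these arrays.

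Dendritic cells take up antigen in tissues, travel through lymph vessels to the draining lymph node and show peptides to T cells on MHC class II molecules. Skin holds several kinds: Langerhans cells in the epidermis, type 1 conventional dendritic cells (cDC1, which present to cytotoxic T cells) and type 2 conventional dendritic cells (cDC2) in the dermis, and cells that arise from monocytes during inflammation. Several of the 10 genes have other sources in whole skin. Macrophages also make Itgax and Clec10a, hair follicle epithelium makes Epcam, endothelium makes Zbtb46, and T and B cells make Ccr7.

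Of the 10 genes, 8 had promoter entries in RefSeq (build GRCm38.p6, 250 bases before to 50 after the start), and 3 of these held the letters TGANTCA, the site of AP-1 factors such as the BATF proteins paired with JUN. The promoters are shown because Batf3 is itself a member and because in Cd207 and Zbtb46 it forms, on the other strand, the composite of GAAA directly followed by TGANTCA, known to be bound by BATF and JUN with IRF4 or IRF8. Matches on either strand are in capitals, and each match of the composite contains a match of TGANTCA.
Cd207, chr6:83677808-83678107, minus strand: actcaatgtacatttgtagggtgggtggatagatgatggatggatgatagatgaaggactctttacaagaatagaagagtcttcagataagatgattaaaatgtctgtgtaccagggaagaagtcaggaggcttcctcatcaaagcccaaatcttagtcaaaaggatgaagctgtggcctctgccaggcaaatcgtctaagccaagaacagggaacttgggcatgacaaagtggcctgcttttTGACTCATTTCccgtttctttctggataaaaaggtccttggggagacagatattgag
Zbtb46, chr2:181424339-181424638, minus strand: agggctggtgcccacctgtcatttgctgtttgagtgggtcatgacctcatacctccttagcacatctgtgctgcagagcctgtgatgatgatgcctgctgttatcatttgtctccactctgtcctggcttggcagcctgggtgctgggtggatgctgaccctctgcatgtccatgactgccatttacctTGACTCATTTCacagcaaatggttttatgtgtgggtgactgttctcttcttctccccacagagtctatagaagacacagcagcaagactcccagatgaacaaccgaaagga
Itgax, chr7:128129300-128129599, plus strand: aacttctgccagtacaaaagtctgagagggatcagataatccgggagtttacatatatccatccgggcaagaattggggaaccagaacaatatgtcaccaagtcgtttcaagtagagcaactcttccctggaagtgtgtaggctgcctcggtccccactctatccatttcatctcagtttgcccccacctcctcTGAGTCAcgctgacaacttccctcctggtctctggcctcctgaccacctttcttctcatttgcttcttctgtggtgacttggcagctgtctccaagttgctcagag

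Counting the first transcribed base as 0, the AP-1 letters lay at −7 to −1 in Cd207, −61 to −55 in Zbtb46 and −56 to −50 in Itgax. The Zbtb46 start used by the table lies inside the gene, which spans 181371009 to 181493262 on chromosome 2. Of 32851 mouse promoters of the same length in the table, 2565 (7.81%) held TGANTCA and 41 (0.125%) held the composite. The letters to search for were chosen after these promoters had been read, so the matches are a description and not a test. Cd207 and Itgax were higher in wounds and Zbtb46 was lower.

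Intensities were deposited on a log2 scale, 1 value per probe set. Array medians lay between 6.89 and 6.93, and the lower quartiles between 5.29 and 5.37. The 10 genes ranged from 5.88 to 9.91, so all of their values lay above the lower quartile, although signal was not tested against background. Krt5, Krt14 and Krt10, keratins of the epidermis, lay far above the upper quartiles of 8.47 to 8.54 on all arrays, as the skin label implies. Across genes, which are not independent replicates, the 2 arrays of a group correlated at r = 0.9967 (intact skin), 0.9891 (day 1) and 0.9861 (day 4).

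By limma, with p-values adjusted over all genes and a threshold of 0.05, 6 of the 10 genes were higher in day 1 wounds and 1 was lower, each relative to intact skin, where 29.3% of all genes tested were called, 14.7% higher and 14.6% lower. The same counts, 6 higher and 1 lower, held in day 4 wounds against intact skin, where 26.9% of all genes were called, 14.8% higher and 12.1% lower. These shares of all genes also stand beside the list counts given below. The median log2 difference of the 10 genes was 0.58 on day 1 and 0.67 on day 4, beside −0.04 and −0.03 over all genes. Both comparisons use the same intact arrays. In whole biopsies, more cells of a type and more RNA per cell cannot be told apart. Leaving out day 1 wound replicate 2 or intact skin replicate 2 reduced the day 1 count of higher genes to 3, and leaving out either intact array reduced the day 4 count to 3, in fits with fewer arrays. The lower count changed between 0 and 2, being 0 on day 1 without any of the day 1 or intact arrays and 2 without either day 4 array. On day 4 it was 0 without day 4 wound replicate 2 or either intact array and 2 without day 4 wound replicate 1.

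**Figure D1:**
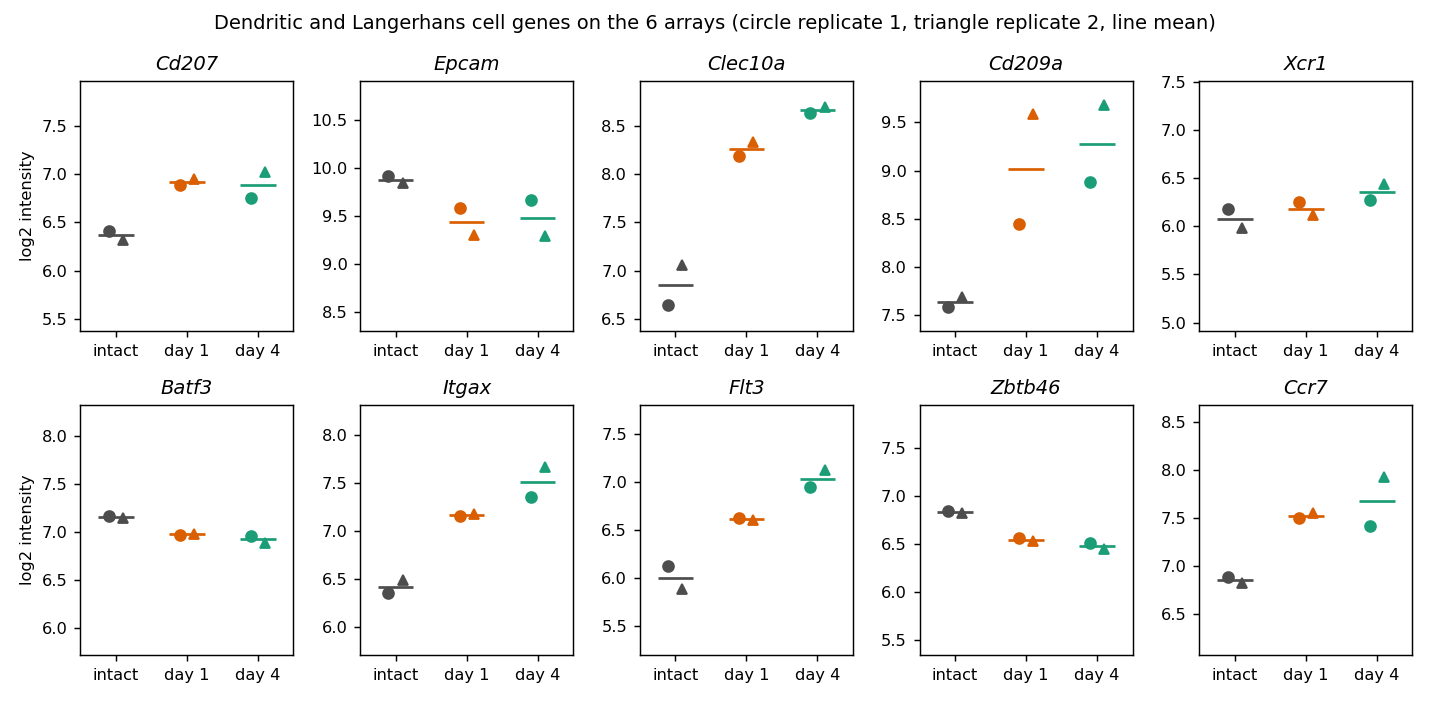
Log2 intensity of each of the 10 genes on the 6 arrays, with intact skin, day 1 wounds and day 4 wounds from left to right. Circles are replicate 1, triangles replicate 2 and lines group means, and every panel spans the same range of log2 units. Clec10a, Itgax and Flt3 step up from group to group, while the day 1 arrays of Xcr1 overlap the intact ones.

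Cd207 encodes langerin, the lectin that builds the Birbeck granules of Langerhans cells and is also made by a part of the dermal cDC1. Its log2 intensity was 6.41 and 6.32 in intact skin, 6.89 and 6.95 in day 1 wounds, and 6.75 and 7.02 in day 4 wounds. All wound arrays were above both intact arrays, and the wound days overlapped. Cd207 averaged 6.92 ± 0.04 in day 1 wounds, against an intact mean of 6.37 ± 0.06 (SD, n = 2 each), a 1.47-fold rise (log2 difference 0.56, SE 0.11, limma adjusted p = 0.00983). On day 4 it was 1.43-fold higher than in intact skin (adjusted p = 0.0147). The day 1 call was lost without day 1 wound replicate 2 (adjusted p = 0.0643) or intact skin replicate 2 (0.0683). The day 4 call was lost without day 4 wound replicate 2 (0.0547), intact skin replicate 1 (0.0663) or intact skin replicate 2 (0.0875).

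Epcam encodes a cell adhesion molecule carried by Langerhans cells and by follicle epithelium. Its values were 9.91 and 9.84 in intact skin, 9.58 and 9.30 in day 1 wounds, and 9.66 and 9.29 in day 4 wounds. All wound arrays were below the intact ones, and replicate 2 was the lower array on both wound days. The log2 difference was −0.44 on day 1 (95% interval −0.79 to −0.08, limma adjusted p = 0.0713) and −0.40 on day 4 (−0.76 to −0.04, adjusted p = 0.0943), neither past the threshold. Epcam was lower past the threshold on day 1 without either day 4 array, which leaves the spread to fewer arrays (adjusted p = 0.0416), and on day 4 without day 4 wound replicate 1 (−0.59, adjusted p = 0.0396). Without replicate 2 of the wound day compared, or without either intact array, adjusted p lay between 0.175 and 0.351. Epcam and Cd207, both carried by Langerhans cells, had differences of opposite sign. Of 14 keratinocyte and follicle markers, 5 were lower and 2 higher on each day, and 2 to 3 were lower without intact skin replicate 1 or 2 and, on day 4, without day 4 wound replicate 2. The 2 higher genes of day 1 were 0 to 1 without any of the 4 arrays compared. The list's mean level was 11.28 and 11.31 in intact skin, 10.17 and 9.04 in day 1 wounds, and 10.62 and 9.36 in day 4 wounds, again lower in replicate 2. In replicate 2 the follicle keratins Krt25, Krt28 and Krt71 pulled this mean down most. They were at 12.80, 11.80 and 13.13 in intact skin replicate 2, and at 5.98, 4.85 and 6.41 in day 1 wound replicate 2. The epidermal keratins Krt14, Krt1 and Krt10 were above both intact arrays on all wound arrays. Foxn1, a regulator of the hair follicle, had a log2 difference of −2.67 on day 1 (adjusted p = 8.91e-04) and Krt14, a basal keratin, one of 0.60 on day 4 (adjusted p = 0.00364). On each day 14.3% of this list was higher, near the 14.7% (day 1) and 14.8% (day 4) of all genes. Of all genes, 14.6% were lower on day 1 and 12.1% on day 4. The part of follicle RNA in the Epcam difference was not tested.

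Of 9 other Langerhans cell markers, 3 were higher and 3 lower on day 1, and 2 were higher and 2 lower on day 4. Of all genes, 14.7% were higher and 14.6% lower on day 1, and 14.8% and 12.1% on day 4. The invariant chain Cd74 (log2 difference 0.91, adjusted p = 0.0108) and the uptake receptor Ly75 (0.53, adjusted p = 0.0177) were among the day 1 rises. The semaphorin gene Sema7a (−0.68, adjusted p = 0.00203) and Mfge8 (−0.46, adjusted p = 0.0152), whose product bridges dying cells to phagocytes, were among the falls. Epidermal and dermal cells also make several of these, Cdh1 among them. The day 1 counts fell to between 0 and 1 higher and to 1 lower when intact skin replicate 2 or day 1 wound replicate 2 was left out, to 1 higher without day 1 wound replicate 1, and to 1 lower without intact skin replicate 1. On day 4, 4 were higher without day 4 wound replicate 1 and 1 without day 4 wound replicate 2 or either intact array, and 1 was lower in each of the 6 fits lacking an array. Il34, the cytokine that keeps Langerhans cells in the epidermis, differed by 0.03 on day 1 (adjusted p = 0.88) and was higher by 0.45 on day 4 (adjusted p = 0.0411). That call was lost without either day 4 or either intact array, with a highest adjusted p of 0.179, and under quantile normalization (0.0638) and median centring (0.0514). Its receptor gene Csf1r, also on macrophages, was higher by 1.27 on day 1 (adjusted p = 3.13e-04) and 1.76 on day 4 (adjusted p = 1.84e-04).

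Clec10a encodes a galactose-binding lectin of dermal dendritic cells and macrophages. It was at 6.64 and 7.06 in intact skin, 8.19 and 8.34 in day 1 wounds, and 8.64 and 8.70 in day 4 wounds, with no overlap between any 2 groups. It was 2.67-fold higher in day 1 wounds than in intact skin (log2 difference 1.42, SE 0.14, limma adjusted p = 9.26e-04) and 3.53-fold higher in day 4 wounds (1.82, SE 0.14, adjusted p = 5.84e-04). Both calls held with any 1 array left out, with highest adjusted p of 0.0117 and 0.00714. The day 4 arrays were above the day 1 arrays by 0.41 (95% interval 0.06 to 0.75, adjusted p = 0.2).

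Cd209a encodes a lectin related to human DC-SIGN, found on dendritic cells that arise from monocytes. It was at 7.58 and 7.69 in intact skin, 8.44 and 9.59 in day 1 wounds, and 8.88 and 9.68 in day 4 wounds. All wound arrays were above the intact ones, and replicate 2 was higher than replicate 1 by 1.15 on day 1 and 0.80 on day 4, against 0.11 in intact skin. The rise was 2.6-fold in day 1 wounds (log2 difference 1.38, SE 0.40, limma adjusted p = 0.0435) and 3.13-fold in day 4 wounds (1.65, SE 0.40, adjusted p = 0.0264). Without day 1 wound replicate 2 the day 1 difference was 0.81 (adjusted p = 0.167), and without day 4 wound replicate 2 the day 4 difference was 1.25 (adjusted p = 0.129). Leaving out intact skin replicate 1 or 2 also ended both calls, with adjusted p between 0.105 and 0.178. So did testing all deposited probe sets together, with 0.0802 on day 1 and 0.0534 on day 4, and quantile normalization brought the day 1 value to the threshold (0.05). With a replicate block in the limma fit both calls held (adjusted p = 0.00971 and 0.00645), although the labels tie no animal to a replicate number.

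Cd209d and Cd209e, close relatives of Cd209a, were higher in wounds too. Cd209d was at 7.65 and 7.68 in intact skin, 8.39 and 9.47 in day 1 wounds, and 9.01 and 9.28 in day 4 wounds (log2 differences 1.26 and 1.48, adjusted p = 0.0272 and 0.0178). Replicate 2 was again the higher wound array on both days. Cd209e was at 6.39 and 6.01 in intact skin, 6.83 and 7.41 in day 1 wounds, and 7.26 and 7.62 in day 4 wounds (log2 differences 0.92 and 1.24, adjusted p = 0.026 and 0.0105). Their day 1 calls ended without either intact array, and that of Cd209e also without day 1 wound replicate 2 (highest adjusted p = 0.142). Their day 4 calls ended without day 4 wound replicate 2 or intact skin replicate 2, and that of Cd209d also without day 4 wound replicate 1 or intact skin replicate 1 (highest adjusted p = 0.101). Whether probes of these related genes bind each other's transcripts was not tested, so their values may not be separate measurements.

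**Figure D2:**
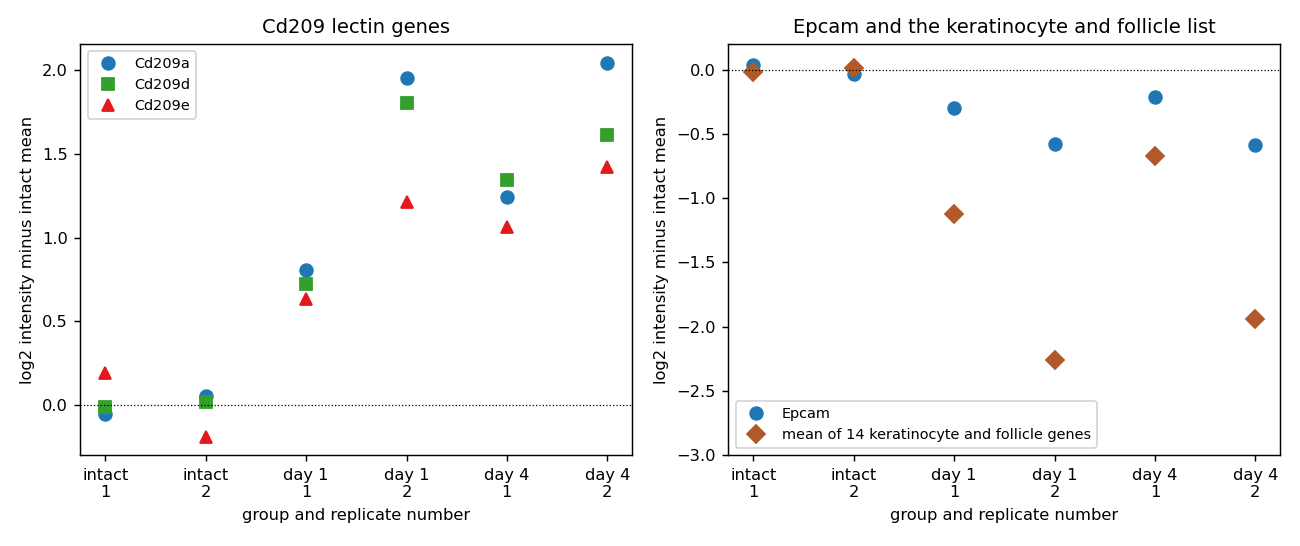
Log2 intensity on each array minus the mean of the 2 intact arrays. The left panel shows Cd209a, Cd209d and Cd209e, with replicate 2 the higher wound array on both days, and the right panel shows Epcam and the mean of 14 keratinocyte and follicle genes, with replicate 2 the lower wound array. In replicate 2 of the wounds Krt25, Krt28 and Krt71 pulled this mean down most.

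Of 12 other markers of cDC2 and dermal dendritic cells, 9 were higher on day 1 and 10 on day 4, and limma called 0 lower on either day (0 at an unadjusted p under 0.05). The median log2 differences were 0.99 and 1.13. The fungal glucan receptor Clec7a was higher by 3.31 and 3.05 (adjusted p = 5.02e-05 and 1.13e-04), and the inhibitory receptor gene Sirpa by 0.92 and 1.02 (adjusted p = 9.83e-04 and 9.57e-04). Mgl2, the close relative of Clec10a and a marker of dermal cDC2, differed by 0.39 on day 1 (adjusted p = 0.202) and was higher by 1.00 on day 4 (adjusted p = 0.0148). Its day 4 call ended without either day 4 array (0.0526 and 0.0755), and without intact skin replicate 1 it passed on day 1 as well (0.73, adjusted p = 0.0113). Monocytes and macrophages also make many of these genes, and Esam is counted among the endothelial markers below as well. Of 14 monocyte and macrophage markers, 13 were higher on day 1 and 14 on day 4, and the list's mean level was 7.93 and 8.33 in intact skin, 10.10 and 10.27 in day 1 wounds, and 10.20 and 10.26 in day 4 wounds. The part of these cells in the Clec10a, Cd209a and Itgax rises was not tested.

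Xcr1 and Batf3 mark the cDC1: Xcr1 encodes the receptor for the chemokine XCL1, and Batf3 a transcription factor these cells need to develop. Xcr1 was at 6.18 and 5.98 in intact skin, 6.25 and 6.12 in day 1 wounds, and 6.27 and 6.44 in day 4 wounds. The day 1 arrays overlapped the intact ones, and the day 4 arrays were above them. The log2 difference was 0.11 on day 1 (95% interval −0.15 to 0.36, limma adjusted p = 0.505) and 0.28 on day 4 (0.02 to 0.53, adjusted p = 0.106). Batf3 was at 7.16 and 7.14 in intact skin, 6.97 and 6.98 in day 1 wounds, and 6.96 and 6.88 in day 4 wounds. All wound arrays were below the intact ones, by 0.18 on average on day 1 (adjusted p = 0.119) and 0.23 on day 4 (adjusted p = 0.0586). Batf3 did not pass the threshold on either day, but on day 4 it passed under quantile normalization (adjusted p = 0.0269), median centring (0.0341) and removal of the dimmest 30% of genes (0.0382). Xcr1 passed on day 4 under cyclic loess (0.0353).

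Of 10 other cDC1 markers, 5 were higher on day 1 and 6 on day 4, with median log2 differences of 0.32 and 0.37. Limma called 0 lower on either day (0 on day 1 and 1 on day 4 at an unadjusted p under 0.05). Wdfy4, which cDC1 need for cross-presentation, was higher by 0.91 and 1.06 (adjusted p = 6.63e-04 and 5.66e-04). Clec9a, a receptor for dead cells used as a marker of this lineage, differed by 0.33 on day 1 (adjusted p = 0.0695, and 0.0304 under cyclic loess). Clec9a was higher by 0.58 on day 4 (adjusted p = 0.0113), a call that ended without day 4 wound replicate 2 or either intact array. Its intact arrays were at 5.14 and 5.04, under the lower quartile, so the size of its difference is approximate. The lysosomal gene Naaa, which macrophages also make, was higher by 1.23 and 1.51 (adjusted p = 3.25e-04 and 2.76e-04). The part in this list of cells other than cDC1 was not tested. The counts of higher genes fell to 3 without day 1 wound replicate 1, day 1 wound replicate 2 or intact skin replicate 2 on day 1, and without day 4 wound replicate 2 or intact skin replicate 1 on day 4. Xcl1, the ligand of Xcr1, was at 6.45 and 6.19 in intact skin, 6.38 and 6.19 in day 1 wounds, and 6.81 and 6.56 in day 4 wounds, and differed by −0.04 and 0.36 (adjusted p = 0.87 and 0.0903).

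Itgax encodes CD11c, the integrin chain carried by most dendritic cells. It was at 6.36 and 6.49 in intact skin, 7.16 and 7.18 in day 1 wounds, and 7.36 and 7.67 in day 4 wounds, and no 2 groups overlapped. It was 1.68-fold higher in day 1 wounds (log2 difference 0.75, SE 0.12, limma adjusted p = 0.00459) and 2.13-fold higher in day 4 wounds (1.09, SE 0.12, adjusted p = 0.00153) than in intact skin. Both calls held with any 1 array left out (highest adjusted p = 0.0424 and 0.0201).

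Flt3 encodes the receptor kinase through which FLT3 ligand sustains conventional dendritic cells and their precursors. It was at 6.12 and 5.88 in intact skin, 6.62 and 6.60 in day 1 wounds, and 6.94 and 7.12 in day 4 wounds, again with no overlap. The rise was 1.53-fold in day 1 wounds (log2 difference 0.61, SE 0.11, limma adjusted p = 0.00749) and 2.04-fold in day 4 wounds (1.03, SE 0.11, adjusted p = 0.00145). Both calls held with any 1 array left out (highest adjusted p = 0.0462 and 0.0122). The ligand gene Flt3l was at 8.09 and 8.03 in intact skin, 8.07 on both day 1 arrays, and 8.06 and 8.26 in day 4 wounds. It differed by 0.01 on day 1 (adjusted p = 0.945) and 0.10 on day 4 (adjusted p = 0.449), with a sign on day 1 that turned under quantile normalization (−0.05) and median centring (−0.02).

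Zbtb46 encodes a transcription factor that separates conventional dendritic cells from other myeloid cells. It was at 6.85 and 6.83 in intact skin, 6.56 and 6.53 in day 1 wounds, and 6.51 and 6.45 in day 4 wounds, so that all wound arrays were lower. It averaged 6.55 ± 0.02 in day 1 wounds and 6.48 ± 0.04 in day 4 wounds, against 6.84 ± 0.01 in intact skin (SD, n = 2 each). It fell by 0.30 (SE 0.07, limma adjusted p = 0.0228) on day 1 and by 0.36 (SE 0.07, adjusted p = 0.0129) on day 4, the opposite direction to Itgax and Flt3 in the same biopsies. The day 1 call was lost under cyclic loess (−0.21, adjusted p = 0.0633) and without any of the 4 arrays compared (0.0667 to 0.111). The day 4 call was lost without day 4 wound replicate 2 (0.0632), intact skin replicate 1 (0.0795) or intact skin replicate 2 (0.0642). Of 10 markers of endothelium, which also makes Zbtb46, limma called 8 higher on each day and 0 lower (0 lower at an unadjusted p under 0.05), with medians of 0.93 and 0.65. On day 4 this count was 1 without intact skin replicate 1 and 5 without day 4 wound replicate 2. The list's mean level was 7.84 and 7.98 in intact skin, 8.58 and 8.66 in day 1 wounds, and 8.38 and 8.64 in day 4 wounds. The part of endothelium in the Zbtb46 difference was not tested.

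**Figure D3:**
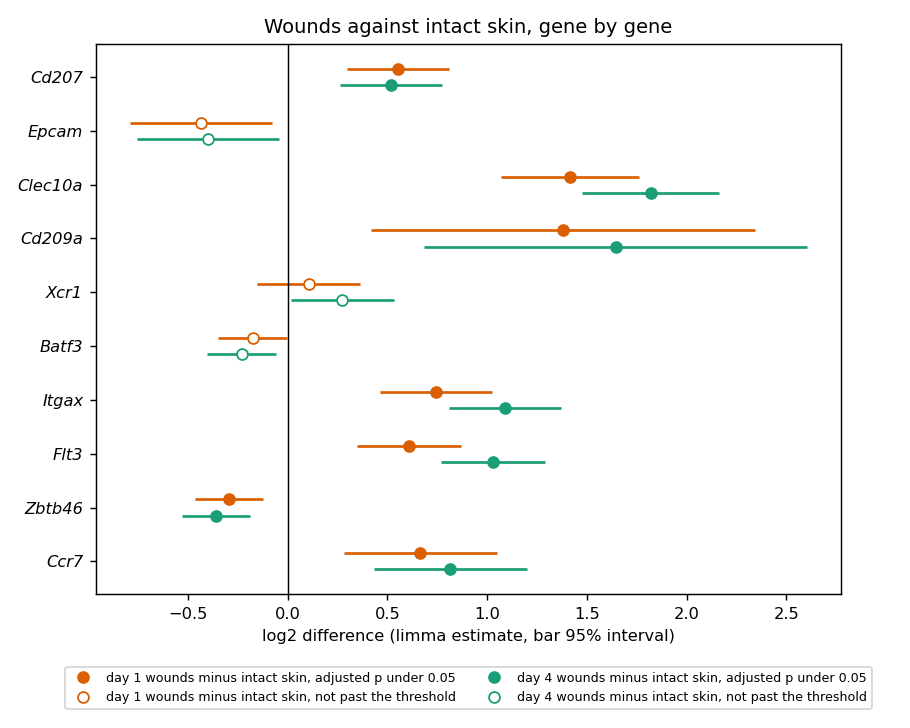
Limma log2 differences of the 10 genes, with day 1 wounds and day 4 wounds each set against intact skin, and 95% intervals as bars. Filled points passed an adjusted p of 0.05. Cd207, Clec10a, Cd209a, Itgax, Flt3 and Ccr7 lie above 0 and Zbtb46 below it on both days, and Epcam, Xcr1 and Batf3 are open.

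Of 18 other transcription factors of dendritic cell development, 11 were higher and 1 lower on day 1, and 9 were higher and 1 lower on day 4, with medians of 0.65 and 0.43. Irf8, which with Batf3 governs the cDC1, was at 7.31 and 7.20 in intact skin, 8.67 and 8.70 in day 1 wounds, and 8.93 and 9.09 in day 4 wounds. It was higher by 1.43 (adjusted p = 1.67e-04) and 1.76 (adjusted p = 1.63e-04). Spi1, which encodes the myeloid factor PU.1 and is made by neutrophils and macrophages too, was higher by 2.74 and 2.10 (adjusted p = 2.65e-04 and 9.52e-04). Ikzf1, the lymphoid and myeloid regulator Ikaros, was higher by 1.64 and 1.41 (adjusted p = 4.29e-04 and 0.00103). Mycl, a MYC relative that supports cDC1, was lower by a log2 difference of −1.07 on day 1 (adjusted p = 3.86e-04) and −0.52 on day 4 (adjusted p = 0.00654), and the day 4 call ended without intact skin replicate 1 (adjusted p = 0.0545). Mycl was at 8.33 and 8.28 in intact skin, and the part of cells other than cDC1 in its fall was not tested. Irf4, which directs the cDC2, differed from intact skin by −0.255 on day 1 (adjusted p = 0.135) and was higher by 0.45 on day 4 (adjusted p = 0.0272). The day 4 call was lost in some fits with an array left out. Irf4 was also higher on day 4 than on day 1 by 0.71 (adjusted p = 0.0389), a call that no fit with an array left out kept.

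Ccr7 encodes the receptor for CCL19 and CCL21 that leads matured dendritic cells, and T cells, to the lymph node. It was at 6.89 and 6.83 in intact skin, 7.50 and 7.55 in day 1 wounds, and 7.42 and 7.93 in day 4 wounds. All wound arrays were above the intact ones, and the wound days overlapped. The rise was 1.59-fold in day 1 wounds (log2 difference 0.67, SE 0.16, limma adjusted p = 0.0228) and 1.76-fold in day 4 wounds (0.82, SE 0.16, adjusted p = 0.0128). The day 1 call was lost without any of the 4 arrays compared (0.0813 to 0.115), and the day 4 call without intact skin replicate 1 (0.0721) or 2 (0.0771). Ccl19 was at 7.73 and 7.52 in intact skin, 8.56 and 9.15 in day 1 wounds, and 8.20 and 8.26 in day 4 wounds. It was higher by 1.23 on day 1 (adjusted p = 0.00431) and differed by 0.60 on day 4 (adjusted p = 0.0583). Of 9 T cell markers, 5 were higher and 1 lower on day 1, and 4 higher and 1 lower on day 4. The lower gene, Lef1 (−2.50 on day 1, adjusted p = 8.25e-04), is also a hair follicle factor. Of all genes, 14.7% were higher and 14.6% lower on day 1, and 14.8% and 12.1% on day 4. The T cell list's mean level was 6.47 and 6.40 in intact skin, 6.92 and 6.81 in day 1 wounds, and 6.78 and 6.81 in day 4 wounds. Of 7 B cell markers limma called 0 on day 1 (0 higher and 2 lower at an unadjusted p under 0.05), although Cd22, Pax5 and Blk among them were above the arrays' lower quartile. On day 4 limma called 0 higher and 1 lower (2 higher and 2 lower at an unadjusted p under 0.05). The lower gene was Fcer2a, the low-affinity IgE receptor CD23 (−0.59, adjusted p = 0.0354), a call that ended without any array but intact skin replicate 1 (0.0579 to 0.127) and under quantile normalization (0.0617) and cyclic loess (0.0761). Under quantile normalization 1 B cell marker was higher on day 4, and under cyclic loess 2 were. The part of T cells in the Ccr7 rise was not tested.

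Of 18 genes of matured and migrating dendritic cells, 9 were higher and 3 lower on day 1, and 12 higher and 1 lower on day 4. The lower genes of day 1 were Slco5a1 at −1.22 (adjusted p = 0.00211), Nudt17 at −0.445 (adjusted p = 0.00704) and Fscn1, given below. Slco5a1 was also the lower gene of day 4, at −1.44 (adjusted p = 0.00157). The co-stimulatory ligands Cd80 and Cd86 were higher by 2.81 and 2.19 on day 1 (adjusted p = 3.70e-04 and 3.19e-04) and by 2.33 and 1.80 on day 4 (adjusted p = 0.00103 and 9.16e-04). Cd274, the inhibitory ligand PD-L1, was higher by 2.69 and 2.23 (adjusted p = 7.17e-05 and 2.33e-04). Many of these are induced in macrophages and neutrophils as well. Of 12 neutrophil markers 10 were higher on day 1 and 9 on day 4, and their mean level was 5.68 and 5.75 in intact skin, 9.42 and 9.82 in day 1 wounds, and 8.38 and 8.61 in day 4 wounds. Ccl22, a chemokine that matured dendritic cells secrete for T cells, differed by 0.10 on day 1 (adjusted p = 0.556) and was higher by 0.91 on day 4 (adjusted p = 0.00262). Fscn1, the actin bundler of the dendrites of matured dendritic cells, differed by −0.35 on day 1 (adjusted p = 0.0409) and 0.34 on day 4 (adjusted p = 0.0475). The day 4 rise of Fscn1 was lost without any of the 4 arrays compared (0.0866 to 0.226) and under quantile normalization, cyclic loess and median centring (0.0509 to 0.0775). Its day 1 fall was lost with any 1 of the 6 arrays left out (0.0534 to 0.186), as were the day 4 against day 1 calls of Fscn1 (0.69, adjusted p = 0.0356, against 0.0765 to 0.138) and Ccl22 (0.81, adjusted p = 0.0338, against 0.0751 to 0.169). Lamp3, another maturation marker, lay under the arrays' lower quartile on all arrays (4.12 to 4.53) and did not pass (−0.16 and −0.27, adjusted p = 0.313 and 0.118).

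Of 10 genes of MHC class II presentation, the function these cells share with macrophages and B cells, 8 were higher on each day, with medians of 0.81 and 1.06. The class II chain H2-Ab1 was higher by 0.90 and 1.24 (adjusted p = 0.00226 and 0.00101), and Ctss, the protease that trims the invariant chain, by 2.94 and 3.01 (adjusted p = 7.81e-04 and 0.00103). The day 1 count was 3 without day 1 wound replicate 2 or intact skin replicate 2. Of 9 plasmacytoid dendritic cell markers 5 were higher and 1 lower on day 1, and 3 higher and 1 lower on day 4. The lower gene was Pacsin1, at −0.45 and −0.49 (adjusted p = 0.00461 and 0.00418). Of all genes, 14.7% were higher and 14.6% lower on day 1, and 14.8% and 12.1% on day 4. Ly6d and Cox6a2 of this list lay above the upper quartile on all arrays, intact ones included. The part in this list of cells other than plasmacytoid dendritic cells was not tested. Siglech, their defining surface receptor, was higher by 0.41 and 0.43 (adjusted p = 0.0381 and 0.0364), and the day 1 call ended without any array but intact skin replicate 1 (highest adjusted p = 0.186) and the day 4 call without any of the 4 compared (0.164). The day 1 count of this list was 2 to 3 without any of the 4 arrays compared, and the day 4 count was 1 without day 4 wound replicate 2 or either intact array.

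Growth factors and receptors that feed or guide these cells made up a list of 21, of which 13 were higher and 2 lower on day 1 and 12 higher and 2 lower on day 4. The chemokine receptor gene Ccr1 was higher by 4.68 and 3.695 (adjusted p = 6.63e-05 and 2.34e-04). Csf2rb, the signalling chain of the GM-CSF receptor, was higher by 2.90 and 1.88 (adjusted p = 1.51e-04 and 9.52e-04). The part of neutrophils and macrophages in the rises of this list was not tested. The ligand gene Csf2 was higher by 0.50 on day 1 (adjusted p = 0.014) and differed by 0.09 on day 4 (adjusted p = 0.568). Its arrays all lay under the lower quartile, and the day 1 call ended without either day 1 array or intact skin replicate 2 (highest adjusted p = 0.0882). Ccl20, a chemokine for Langerhans cell precursors, was higher by 2.90 on day 1 (adjusted p = 6.80e-05), and lower on day 4 than on day 1 by −1.89 (adjusted p = 0.00816). Ccr6, its receptor, differed by −0.09 on day 1 and 0.07 on day 4 (adjusted p = 0.673 and 0.766), and both signs turned when single arrays were left out. The lower genes were Bmp7, at −0.64 and −0.66 (adjusted p = 0.0097 and 0.0104), and Cxcl12, at −0.26 and −0.29 (adjusted p = 0.0426 and 0.0284). Bmp7 was at 10.3 and 10.36 in intact skin, 9.83 and 9.55 in day 1 wounds, and 9.78 and 9.56 in day 4 wounds. Replicate 2 was its lower wound array on both days, as for Epcam, and the part of follicle RNA in the Bmp7 fall was not tested. The count of lower genes was 0 or 1 without any of the 4 arrays compared on day 1, and 0 without day 4 wound replicate 2 or either intact array on day 4.

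**Figure D4:**
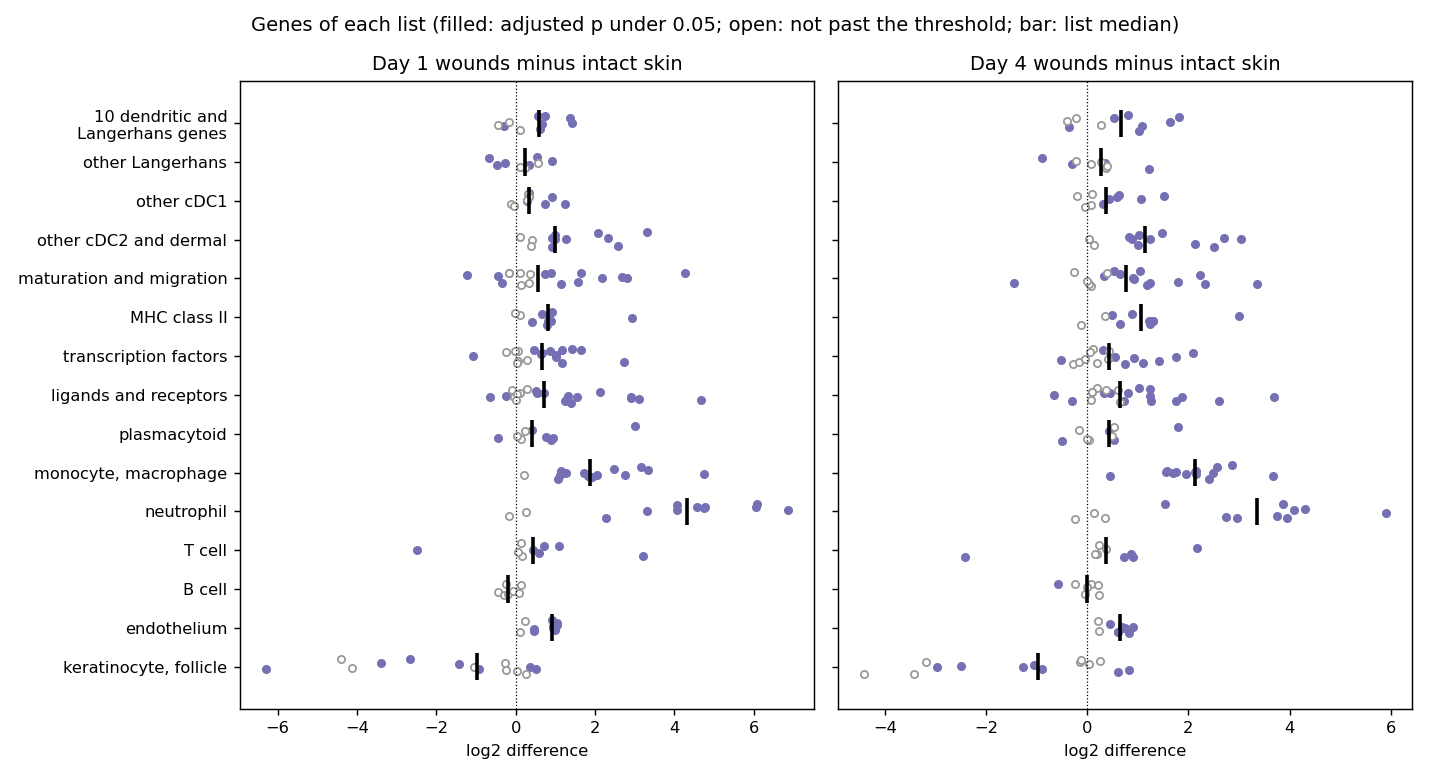
Log2 differences of the genes of each list, with day 1 wounds against intact skin on the left and day 4 wounds against intact skin on the right. Points are genes, filled where the adjusted p was under 0.05, and bars are list medians. The 10 genes have medians of 0.58 and 0.67, below those of the monocyte and macrophage list (1.87 and 2.14) and the neutrophil list (4.31 and 3.35).

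Between the wound days limma called 0 of the 10 genes (3 at an unadjusted p under 0.05), where 2.23% of all genes tested were called, 1.09% higher and 1.14% lower. The 3 were Flt3 at 0.42 (95% interval 0.16 to 0.68, adjusted p = 0.109), Itgax at 0.35 (0.07 to 0.63, adjusted p = 0.183) and Clec10a, given above. All 3 were higher on both day 4 arrays than on both day 1 arrays. In all, 6 of the 10 genes did not overlap between the wound days, where 47.6% of all genes did not. Against intact skin 9 of 10 did not overlap on day 1 and 10 of 10 on day 4, beside 67.3% and 66% of all genes. Cd207 differed by −0.04 between the days (95% interval −0.29 to 0.22), Zbtb46 by −0.07 (−0.24 to 0.11) and Cd209a by 0.27 (−0.70 to 1.23), the widest interval of the 10.

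By the moderated F test over the 3 groups 7 of the 10 genes passed, beside 30.7% of all genes, and Batf3 (adjusted p = 0.0982), Epcam (0.105) and Xcr1 (0.187) did not. The count was 4 without day 1 wound replicate 2 and 3 without either intact array. For each of the 7, the genes with the most similar profile were sought by the root mean squared difference over the 6 arrays after the intact mean was subtracted. The closest to Cd209a was its relative Cd209d (0.20 log2 units), and the closest to Clec10a were Hacd4 (0.10), Sprr2i (0.11) and the scavenger receptor gene Stab1 (0.11). Pdgfc, Loxl3 and Slc37a2 were closest to Itgax (0.07 each), and Adamts15, Plxnc1 and Aqp9 to Flt3 (0.07 to 0.08). Nfu1 was closest to Cd207 (0.02), Pacsin2 to Zbtb46 (0.02) and Htr2a to Ccr7 (0.05). With only 6 arrays, this likeness is a description of these samples.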

How the data were processed

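The deposited values are log2 intensities of 35556 probe sets on 6 arrays, produced by RMA according to the submitters' processing notes, which give no version here; scanner files were not used. RMA brings arrays to a common distribution, so differences are relative to the bulk of genes. The number of arrays limits the precision. Probe sets with 1 symbol (21789) were kept, those with several (1621) or none (12146) were not, and the brightest per gene gave 19938 genes. The tests were limma's (version 3.58.1, R 4.3.3; lmFit, eBayes, all 6 arrays, 3 residual degrees of freedom, two-sided, Benjamini-Hochberg over all genes, threshold 0.05). The code was tested on simulated data. The members and the 14 other lists (195 names in all) were chosen with earlier results of these data known. Some lists share genes, so their counts are not independent. Esam stands with the cDC2 and endothelial markers, Cd74 with the Langerhans and MHC class II genes, and Csf1r with the ligands and receptors and the macrophage markers. Named list genes had the smallest p of their list (up to 4 per comparison), went against it or were partners of a member, and others named (Cd209d, Cd209e, Mgl2, Clec9a, Ccl22, Fscn1, Lamp3, Ccr6, Krt5, Krt10, Irf4, Cd22, Pax5, Blk, Cd80, Siglech and Cdh1 among them) were chosen after their values were seen. Of all listed names 183 were found (1 under an older symbol) and 12 were missing. Alternatives were 3 scalings, a variance trend, 2 groups alone, removal of the dimmest 30%, probe set means, all probe sets, a replicate block and each array left out.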

Additional observations from a re-analysis of the deposited data

How the results depend on the processing

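Of 450 values of the 10 genes under the alternatives, 406 kept direction and side of the threshold, 28 fell below it, 10 passed it and 6 changed sign. Part of this agreement was built in. The variance trend, removal of the dimmest genes, probe set means and all probe sets left each log2 difference unchanged. So did the replicate block and the 2 groups alone, so in these only the adjusted p could move. Fits without an array of the group not compared repeated the fit of the 2 groups alone. The sign changes were all between the wound days with 1 array left out, and none passed: over these fits Cd207 ranged from −0.17 to 0.10, Cd209a from −0.31 to 0.84, Ccr7 from −0.11 to 0.41 and Epcam from −0.15 to 0.22 (Cd209a also −0.14 and Epcam −0.11). Of partner genes not past the threshold, day 1 signs turned for Flt3l at −0.052 (quantile normalization) and −0.015 (median centring), Il34 at −0.011 (quantile) and Xcl1 at 0.05 (cyclic loess). With 1 array left out, Flt3l ranged on day 1 from −0.02 to 0.04, Il34 from −0.12 to 0.18, Xcl1 from −0.17 to 0.10 and Ccr6 from −0.265 to 0.085, and on day 4 Csf2 from −0.025 to 0.21 and Ccr6 from −0.04 to 0.17.

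The replicate numbers of the 2 wound groups deviated together (correlation 0.685), but those of wounds and intact skin did not (0.014 and 0.023), and the labels tie no animal to a number. With the replicate block 2 of the 10 genes were lower than in intact skin on each day, Epcam being the added gene (adjusted p = 0.0227 and 0.0324), and 348 genes rather than 227 were lower on day 4 than on day 1. The count of lower members on day 1 was 0 under cyclic loess and 2 with only the 2 groups compared, and on day 4 it was 2 under quantile normalization, under median centring and without the dimmest 30%. Between the wound days 217 genes were higher, but 9 higher and 11 lower with all probe sets tested, and 8 higher and 9 lower with only those arrays. The fit of all probe sets used all 6 arrays and the fit of only those arrays used fewer. The causes of these changes were not tested. With each array left out in turn, the members higher than intact skin were 3 to 6 on both days, those lower 0 to 2 on both days, and those passing the F test 3 to 8. Over all genes the ranges were 1773 to 2901 higher and 1376 to 2772 lower on day 1, 1393 to 2760 and 853 to 2147 on day 4, 4 to 67 and 5 to 117 between the days, and 2396 to 5229 in the F test. Cyclic loess, quantile normalization and median centring moved the median of all genes by less than 0.1.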
